A study of Mus musculus with 25 samples.

Results

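This account covers 10 long non-coding RNA genes of the mouse brain, out of 36528 gene IDs counted: Malat1, Neat1, Meg3, Rian, Mirg, Snhg11, Miat, Gm3764, Gm13872 and Gm34583. They were matched by Entrez ID and were selected on their level and their differences between cell types or genotypes in earlier results of the same libraries. Their group levels and differences are therefore given as a description, with no test. RNA was sequenced from Gfap-sorted astrocytes and NeuN-sorted neurons taken at 6 months of age from mice with a human tau transgene (hMAPT-P301S, called P301S here) and from littermates without it (non-Tg). The groups were 5 P301S astrocyte, 6 non-Tg astrocyte, 6 P301S neuron and 8 non-Tg neuron libraries. The labels name neither the promoter of the transgene nor the mouse strain, and they do not say whether a library was 1 animal or a pool. Any p-value thus measures the spread between these samples.

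Long non-coding RNAs act as RNA molecules and many stay in the nucleus. Malat1 gathers at nuclear speckles, bodies rich in splicing factors, and Neat1 is the scaffold of another nuclear body, the paraspeckle. Meg3, Rian and Mirg are transcribed from the maternal chromosome of the imprinted Dlk1-Dio3 domain, where they carry miRNAs and snoRNAs. Miat, also called Gomafu, binds splicing factors through a repeated short motif, and Snhg11 is a host gene of snoRNAs. Gm3764 carries Mir9-1, a gene of the brain miRNA miR-9, and Gm13872 lies antisense to the glutamate transporter gene Slc1a2.

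The positions of the 10 genes were taken from RefSeq on GRCm38.p6. Malat1 (chr19:5795690-5802672) and Neat1 (chr19:5824708-5845480) lie on the minus strand of the same chromosome, 22035 bp apart. Meg3 (chr12:109540996-109571729), Rian (chr12:109603945-109661716) and Mirg (chr12:109734981-109749458) follow each other on the plus strand, with gaps of 32215 and 73264 bp. Snhg11 is at chr2:158375713-158386474, Miat at chr5:112213228-112228948 on the minus strand, Gm3764 at chr3:88206673-88229959, Gm13872 at chr2:102743651-102746760 on the minus strand and Gm34583 at chr5:73370915-73392775. RefSeq classes all 10 as lncRNA. GENCODE M21 differs for 2 of them, since it classes Snhg11 as protein coding and Gm34583 as a transcribed processed pseudogene.

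The mature miRNAs encoded inside the hosts are shown because they are what sets these hosts apart from Malat1 and Neat1, with the seed (bases 2 to 8) in capitals. The sequences are from RefSeq, GRCm38.p6, on the plus strand at chr3:88215613-88215635 for miR-9-5p, chr12:109618305-109618326 for miR-370-3p, chr12:109738438-109738459 for miR-154-5p, chr12:109740553-109740574 for miR-377-3p and chr12:109743764-109743784 for miR-410-3p. The 5 seeds all differ.
mmu-miR-9-5p in Gm3764: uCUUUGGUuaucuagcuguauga
mmu-miR-370-3p in Rian: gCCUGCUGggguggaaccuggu
mmu-miR-154-5p in Mirg: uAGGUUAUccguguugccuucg
mmu-miR-377-3p in Mirg: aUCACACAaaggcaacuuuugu
mmu-miR-410-3p in Mirg: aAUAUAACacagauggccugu

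Promoters are shown for Meg3, which in neurons ranked next to Malat1 among lncRNAs per length, and Gm3764, the miR-9 host high in astrocytes (1 of its RefSeq starts), because both windows hold the cAMP response element TGACGTCA. That motif occurred on either strand in 1.79% of 32851 RefSeq promoter windows of the same length (250 bases before to 50 after a start). The Meg3 window (chr12:109540746-109541045, plus strand, 1 of 2 RefSeq starts) also held the TATA box letters TATAAA, found in 13.6% of windows; here they occur on both strands in an overlapping run. The window of the other Meg3 start, chr12:109545148-109545447, held neither motif. Letters of NFI, STAT and AP-1 sites were also searched in the members' windows. They gave 1 match, a STAT site in Rian, whose letters occur in 8.3% of windows. The match shared by Meg3 and Gm3764 was thus picked from a wider search. Capitals mark the matches, which describe letters and not a bound site.
Meg3 promoter: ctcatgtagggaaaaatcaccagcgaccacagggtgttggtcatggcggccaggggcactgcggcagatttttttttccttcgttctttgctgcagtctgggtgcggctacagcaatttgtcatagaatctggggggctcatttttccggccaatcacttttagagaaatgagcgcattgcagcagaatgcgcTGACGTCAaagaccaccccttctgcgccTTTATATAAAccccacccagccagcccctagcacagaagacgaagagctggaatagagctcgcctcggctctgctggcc
Gm3764 promoter, chr3:88214232-88214531, plus strand: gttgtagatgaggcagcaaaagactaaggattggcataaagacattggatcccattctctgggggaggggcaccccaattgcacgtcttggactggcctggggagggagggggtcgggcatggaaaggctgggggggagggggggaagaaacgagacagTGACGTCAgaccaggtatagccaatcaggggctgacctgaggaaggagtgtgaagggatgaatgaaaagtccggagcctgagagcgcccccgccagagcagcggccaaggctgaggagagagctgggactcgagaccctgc

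Miat is known for repeats that hold ACTAAC, the letters bound by the splicing factors SF1 and QKI in published work. Its 9163-base GENCODE M21 transcript held 11 copies of ACTAAC on the transcribed strand. Among 7040 transcripts of at least 5000 bases the median was 1 copy, and 0.185% had as many as Miat. Bases 5510 to 5629 are shown because they hold 4 of the copies, in capitals.
Miat repeat stretch: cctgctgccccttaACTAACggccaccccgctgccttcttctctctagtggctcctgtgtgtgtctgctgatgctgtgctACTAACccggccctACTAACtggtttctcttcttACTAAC

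Libraries held between 1.25e+06 and 4.45e+06 counts. Levels below are CPM, counts scaled to a library size of 1e+06 by the TMM method over all 25 libraries, unless a share of counts or RPKM is named. The TMM scaling factor was 0.535 in P301S astrocyte library 4, whose CPM are raised accordingly, and 0.780 to 1.25 in the others. P301S astrocyte libraries had a mitochondrial share of counts between 3.42% and 10.97% and detected 13894 to 18997 genes, against 2.16% to 5.39% and 17417 to 21050 genes in non-Tg astrocyte libraries. The summed level of 12 astrocyte markers was 479 to 738 CPM in P301S neurons and 13042 to 26844 CPM in P301S astrocytes, and 352 to 697 CPM in non-Tg neurons and 15123 to 24464 CPM in non-Tg astrocytes. The sum of 12 neuron markers was 2091 to 2874 CPM in P301S neurons and 631 to 1087 CPM in P301S astrocytes, and 2239 to 2688 CPM in non-Tg neurons and 521 to 718 CPM in non-Tg astrocytes. No neuron marker was at 0 in either astrocyte group, and the part of the admixture in the differences below was not tested. The astrocyte sorts yielded less RNA than the neuron sorts, per the labels, so cell type and RNA input cannot be told apart. In such bulk samples fewer cells of a type and less RNA per cell cannot be told apart either.

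Malat1 held most of the long non-coding RNA counts. The 10 genes together took 85.4% to 95.4% of the counts of all 7482 IDs that RefSeq classes as lncRNA, of which 6232 had a count. Without Malat1, the other 9 took 13.4% to 16.4% of the remaining lncRNA counts in P301S astrocytes and 12.1% to 15.2% in non-Tg astrocytes. In neurons they took 52.4% to 67.2% in P301S and 48.2% to 60.3% in non-Tg. Per length, in the authors' RPKM, Malat1 ranked first among all genes in each of the 4 groups. Meg3 ranked 3 in P301S neurons and 2 in non-Tg neurons, at 430 ± 105 RPKM (SD, n = 6) and 491 ± 116 RPKM (SD, n = 8). Snhg11 ranked 6 and 5 in P301S and non-Tg neurons. In astrocytes Gm13872 and Gm3764 ranked 2 and 3 among lncRNAs in both genotypes, at 64.9 and 39.7 RPKM in P301S and 70.7 and 38.8 RPKM in non-Tg. Abundance was not shared by all: Gm34583 averaged 1.19 RPKM or less in every group, and Neat1 0.342 RPKM in P301S neurons and 0.246 RPKM in non-Tg neurons.

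**Figure D1:**
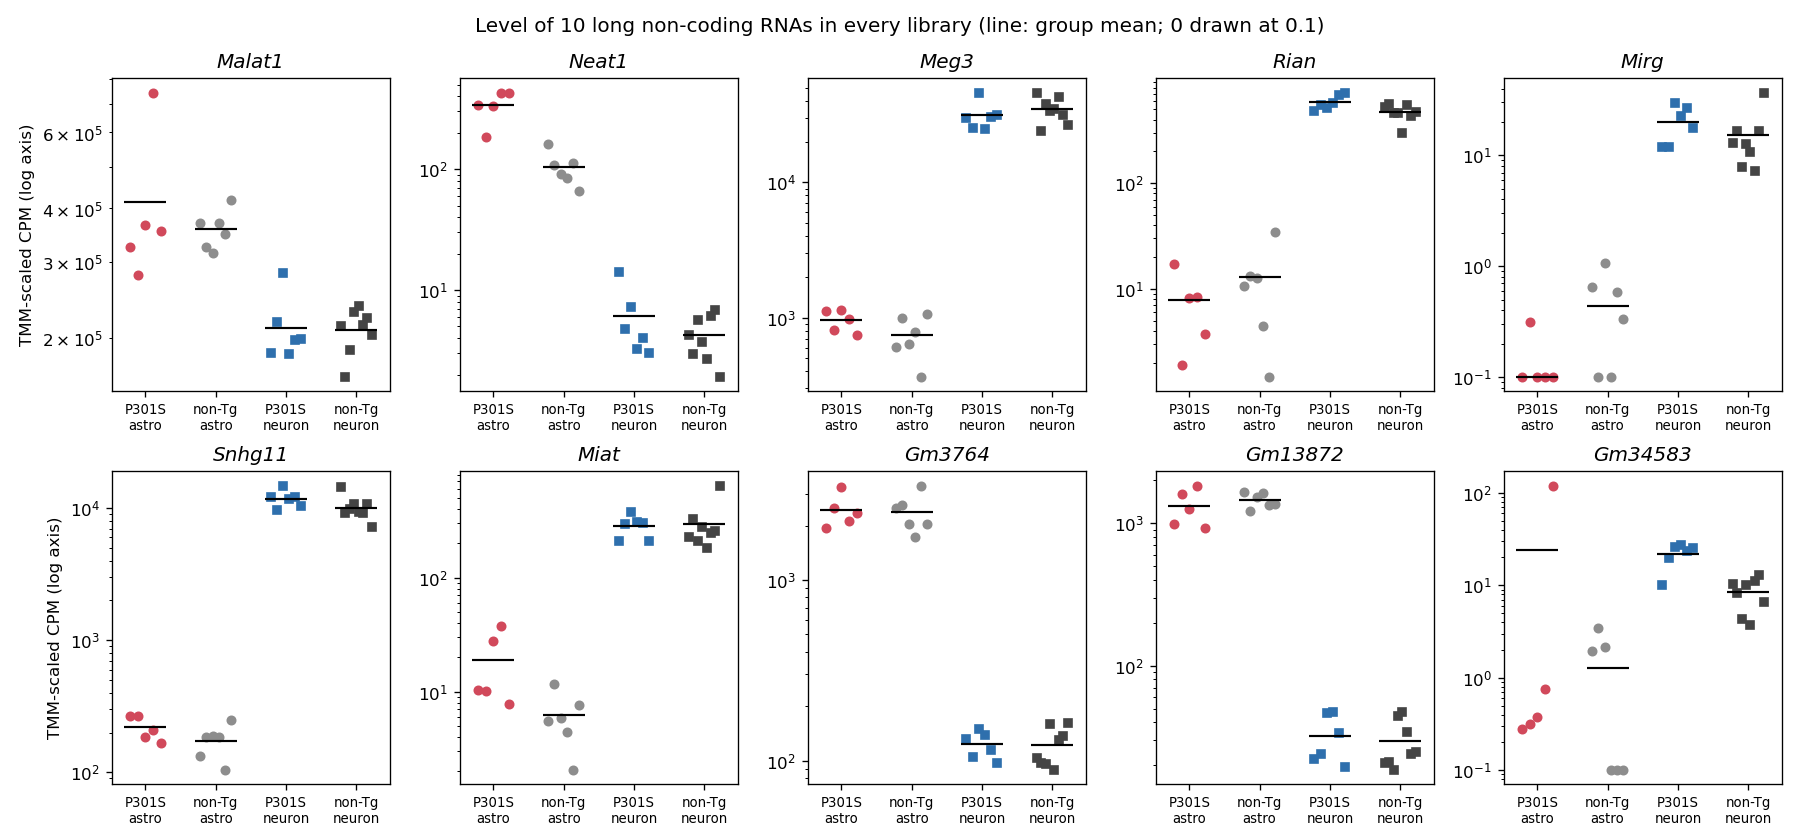
Level of each of the 10 RNAs in every library, as TMM-scaled CPM on a log axis, in P301S astrocytes (n = 5), non-Tg astrocytes (n = 6), P301S neurons (n = 6) and non-Tg neurons (n = 8). Each point is a library and each line an arithmetic group mean, with a 0, and the P301S astrocyte mean of Mirg, drawn at the lowest tick; Malat1 stands at 742091 CPM in P301S astrocyte library 4 and Gm34583 at 120 CPM in P301S astrocyte library 5, both far above their group.

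Malat1 was lower in neurons than in astrocytes in both genotypes. It took 31.1%, 24.6%, 28.2%, 39.3% and 28.9% of the counts in P301S astrocyte libraries 1 to 5. In non-Tg astrocytes its share was 31.4% at lowest, 32.1% at the median and 35.8% at highest. In P301S neurons the share was 21.3%, 22.5% and 28.3% in the same terms, and in non-Tg neurons 20.1%, 23.6% and 24.7%. Of the P301S astrocyte values, 4 lay below the lowest non-Tg astrocyte value and 1 above the highest. On the TMM scale neurons were below astrocytes by a log2 difference of -0.97 (SE 0.17) in P301S and -0.78 (SE 0.15) in non-Tg. The groups overlapped in P301S, where neuron library 3 (283711 CPM) exceeded astrocyte library 2 (280968 CPM), and did not overlap in non-Tg.

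The genotype difference of Malat1 in astrocytes depended on the scale and on 1 library. The mean share of counts was lower in P301S, 30.4% ± 5.52 (SD, n = 5) against 32.9% ± 1.86 (SD, n = 6) in non-Tg. The mean CPM was higher in P301S, 413962 ± 186374 against 358011 ± 36746 in non-Tg, and the fitted log2 difference was 0.20 (SE 0.20). Without P301S astrocyte library 4 the log2 difference was -0.12, and that of neurons over astrocytes in P301S was -0.64. In neurons it was 0.01 (SE 0.14).

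Neat1 was higher in P301S astrocytes than in non-Tg astrocytes, with the largest fitted genotype difference of the 8 members tested there, ahead of Miat. It was at 337, 185, 331, 429 and 429 CPM in P301S astrocyte libraries 1 to 5, and at 65.9 CPM at lowest, 99.99 CPM at the median and 162 CPM at highest in non-Tg astrocytes. All P301S values lay above all non-Tg values. The fold was 3.25, a log2 difference of 1.70 (SE 0.29). It was 1.58 without P301S astrocyte libraries 3 and 4, which hold the highest oligodendrocyte marker levels, and between 1.58 and 1.87 over all 17 alternatives run. The mitochondrial share of counts, given above, was also higher at the median in P301S astrocytes, and its part in the Neat1 difference was not tested.

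Summed markers of 3 other cell types were also higher at the median in P301S astrocyte libraries, though their ranges overlapped. The sum of 9 oligodendrocyte markers was 388 to 1302 CPM in P301S and 202 to 532 CPM in non-Tg, that of 6 oligodendrocyte precursor markers 39.3 to 492 CPM and 83.0 to 163 CPM, and that of 9 microglia and myeloid markers 64.6 to 173 CPM and 31.4 to 83.0 CPM. None of these markers was at 0 in an astrocyte group. The sum of 8 endothelial and mural markers was 39.3 to 122 CPM in P301S and 69.7 to 131 CPM in non-Tg, with Cldn5 at 0 in P301S. Within P301S astrocytes the library with the lowest Neat1 (library 2) also had the lowest microglial sum. The order differed at the upper end. Library 3 had the highest microglial sum, 173 CPM, with Neat1 at 331 CPM. Libraries 4 and 5, both with Neat1 at 429 CPM, had microglial sums of 105 and 90.5 CPM. The part of these cells in the Neat1 difference was not tested.

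In neurons Neat1 was near the limit of counting. Its level was 3.03, 4.41 and 14.1 CPM (lowest, median, highest) in P301S neurons, and 1.90, 3.995 and 6.85 CPM in non-Tg neurons, from 5 to 25 counts a library. The log2 difference was 0.56 (SE 0.38), and 0.14 without P301S neuron library 1, the library at 14.1 CPM. That library also had the highest microglial marker sum among neurons, 313 CPM, where the other P301S neuron libraries had 51.6 to 97.3 CPM; the part of microglia was not tested. Neurons were below astrocytes by a log2 difference of -5.84 (SE 0.39) in P301S and -4.67 (SE 0.33) in non-Tg. As a ratio of counts, Neat1 was 0.0876% ± 0.0261 of Malat1 in P301S astrocytes, 0.0295% ± 0.00957 in non-Tg astrocytes, 0.00295% ± 0.00231 in P301S neurons and 0.00205% ± 0.000843 in non-Tg neurons (SD, n = 5, 6, 6 and 8).

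**Figure D2:**
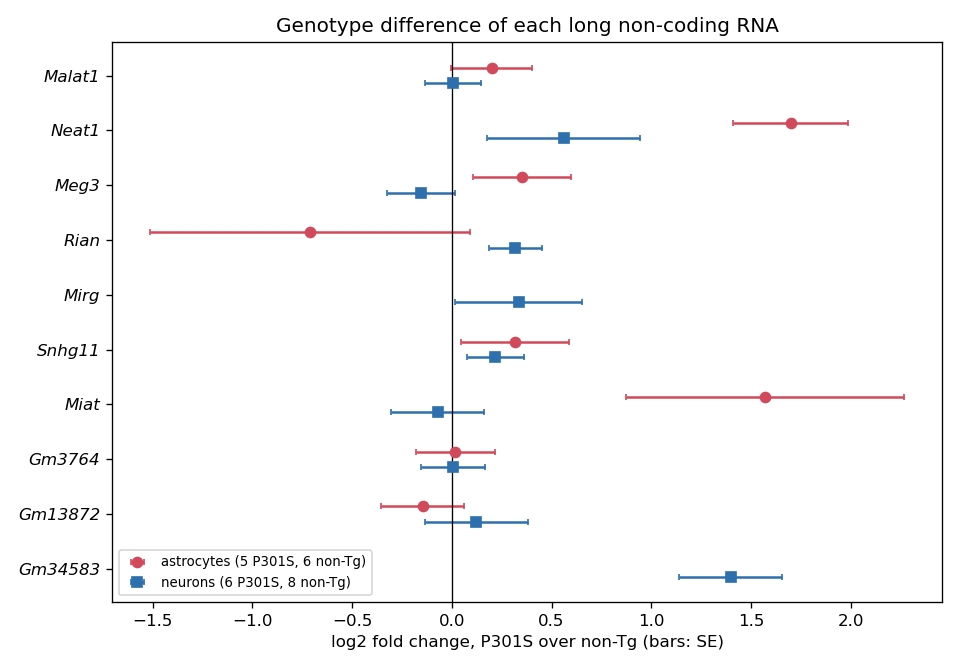
Log2 fold change of P301S over non-Tg for each RNA in astrocytes (circles) and neurons (squares), with bars of 1 SE. Neat1 lies at 1.70 in astrocytes and 0.56 in neurons; Mirg and Gm34583 have no astrocyte point because their counts were too low for the fit.

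The 3 RNAs of the Dlk1-Dio3 domain were higher in neurons than in astrocytes. Meg3 was at 1110, 810, 1144, 981 and 739 CPM in P301S astrocyte libraries 1 to 5, and at 362, 714 and 1065 CPM (lowest, median, highest) in non-Tg astrocytes. In neurons the same 3 values were 25007, 29994 and 46111 CPM in P301S and 23940, 34379 and 45847 CPM in non-Tg. Every neuron library stood above every astrocyte library, and within each cell type the genotypes overlapped. The neuron over astrocyte log2 difference was 5.03 (SE 0.25) in P301S and 5.54 (SE 0.24) in non-Tg. The genotype log2 difference was 0.35 (SE 0.25) in astrocytes and -0.15 (SE 0.17) in neurons.

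Rian, which hosts a snoRNA cluster, was lower than Meg3 per length, with group means of 0.352 RPKM in P301S astrocytes, 0.575 RPKM in non-Tg astrocytes, 29.1 RPKM in P301S neurons and 23.8 RPKM in non-Tg neurons. On the CPM scale it was at 17.2, 1.89, 8.22, 8.31 and 3.74 CPM in P301S astrocyte libraries 1 to 5 and at 1.46, 11.7 and 34.5 CPM (lowest, median, highest) in non-Tg astrocytes. It was at 485, 566 and 720 CPM in P301S neurons and at 297, 467 and 556 CPM in non-Tg neurons. The cell types did not overlap, with log2 differences of 6.20 (SE 0.52) in P301S and 5.18 (SE 0.45) in non-Tg. The genotypes overlapped in both cell types, with log2 differences of -0.71 (SE 0.80) in astrocytes and 0.32 (SE 0.13) in neurons. Counts of Rian were 1.96% ± 0.487 of those of Meg3 in P301S neurons and 1.42% ± 0.447 in non-Tg neurons (SD, n = 6 and 8), ranges that overlapped.

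Mirg, the miRNA host at the far end of the cluster, was at the floor in astrocytes. The 5 P301S astrocyte libraries held 1 count in all, with 4 libraries at 0, and the 6 non-Tg astrocyte libraries 7 counts, with 2 at 0. Depending on the library, 3 counts equalled 0.674 to 2.41 CPM before TMM scaling. Mirg had 11.8, 20.1 and 29.5 CPM in P301S neurons and 7.21, 12.8 and 36.7 CPM in non-Tg neurons (lowest, median, highest). From summed counts the neuron to astrocyte ratio was 274 in P301S (95% exact counting interval 48.9 to 10882) and 45.2 in non-Tg (21.7 to 113). These intervals overlap and cover counting error only. The genotype log2 difference in neurons was 0.33 (SE 0.32), and non-Tg neuron library 8 was the highest of the 14.

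The small RNA genes inside the domain were counted with their hosts. Between the Meg3 start and the Mirg end 69 other genes were counted, among them 60 miRNA and 7 snoRNA genes. The summed miRNA genes reached 84.2 ± 24.1 CPM of the unscaled library total in P301S neurons and 1.41 ± 0.987 in P301S astrocytes (SD, n = 6 and 5). In non-Tg they reached 78.2 ± 49.1 in neurons and 2.49 ± 1.97 in astrocytes (SD, n = 8 and 6). The summed snoRNA genes reached 119 ± 22.8 in P301S neurons and 1.39 ± 0.697 in P301S astrocytes, and 144 ± 45.0 in non-Tg neurons and 4.39 ± 2.41 in non-Tg astrocytes. No neuron library overlapped an astrocyte library in either sum. One gene carried much of the miRNA sum: Mir1906-1, inside Meg3, held 524 of 1012 counts in P301S neurons and 834 of 1738 in non-Tg neurons. The snoRNA sum also rested mainly on 1 gene in neurons. AF357425, inside Rian, held 833 of 1384 counts in P301S neurons and 1360 of 2306 in non-Tg neurons. The labels mention no selection for small RNA, so a count at a miRNA gene was not taken as a mature miRNA level. The hairpin genes of the mature miRNAs shown above had few counts even in neurons: Mir370 held 5 in P301S and 24 in non-Tg, Mir377 held 16 and 30, Mir410 held 3 and 6, and Mir154 held 4 and 6.

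**Figure D3:**
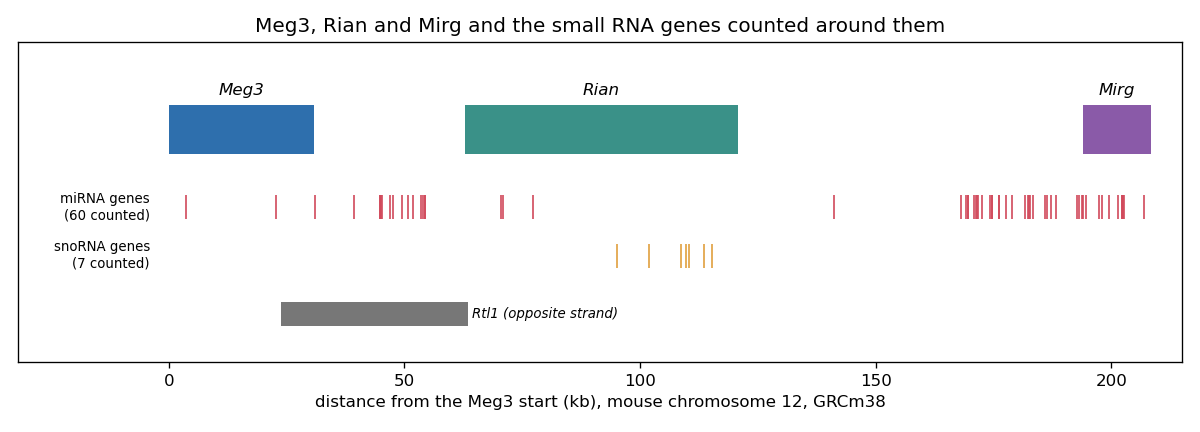
Map of Meg3, Rian and Mirg on mouse chromosome 12, as distance in kb from the Meg3 start. Ticks mark the starts of the 60 miRNA and 7 snoRNA genes counted there, and the grey bar is Rtl1, a protein-coding gene on the opposite strand whose RefSeq span overlaps Meg3 and Rian.

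Rtl1, the paternally expressed gene opposite Meg3 and Rian, was also higher in neurons. Its log2 difference was 3.69 (SE 0.64, adjusted p = 1.16e-05) in P301S and 5.55 (SE 0.66, adjusted p = 1.74e-08) in non-Tg. Whether the authors counted by strand is not given in the sources used here, so reads of Rtl1 and of the RNAs opposite it cannot be told apart where they overlap.

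Snhg11 separated the cell types by about as much as Meg3. It was at 267, 265, 184, 208 and 168 CPM in P301S astrocyte libraries 1 to 5 and at 104, 184 and 250 CPM (lowest, median, highest) in non-Tg astrocytes. It was at 9691, 11867 and 14798 CPM in P301S neurons and at 7144, 9590 and 14349 CPM in non-Tg neurons. The neuron over astrocyte log2 difference was 5.75 (SE 0.23) in P301S and 5.86 (SE 0.21) in non-Tg, with no overlap. The genotype log2 difference was 0.32 (SE 0.27) in astrocytes and 0.22 (SE 0.14) in neurons, with overlap in both.

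Miat was high in neurons, and its level in P301S astrocytes rested on 2 libraries. It was at 10.4, 10.1, 28.0, 37.8 and 7.85 CPM in P301S astrocyte libraries 1 to 5 and at 2.04, 5.68 and 11.7 CPM (lowest, median, highest) in non-Tg astrocytes. The log2 difference was 1.57 (SE 0.70), and 0.59 without libraries 3 and 4. These 2 libraries also had the highest neuron marker sums of the 11, 1087 and 926 CPM, and the highest oligodendrocyte marker sums, 1302 and 1072 CPM; the part of either cell type was not tested. In neurons Miat was at 208, 302 and 376 CPM in P301S and at 183, 252 and 643 CPM in non-Tg, where library 8 was the highest and the next reached 326 CPM. The genotype log2 difference in neurons was -0.07 (SE 0.23). The neuron over astrocyte log2 difference was 3.96 (SE 0.41) in P301S and 5.56 (SE 0.41) in non-Tg, with no overlap in either.

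Gm3764, the host of Mir9-1, had the opposite pattern, high in astrocytes. It was at 1928, 2500, 3251, 2112 and 2334 CPM in P301S astrocyte libraries 1 to 5 and at 1726, 2269 and 3325 CPM (lowest, median, highest) in non-Tg astrocytes. It was at 97.1, 123 and 150 CPM in P301S neurons and at 88.6, 117 and 161 CPM in non-Tg neurons. The neuron over astrocyte log2 difference was -4.30 (SE 0.21) in P301S and -4.28 (SE 0.18) in non-Tg. The genotypes covered nearly the same range in each cell type, with log2 differences of 0.02 (SE 0.20) in astrocytes and 0.01 (SE 0.16) in neurons.

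Gm13872 was high in astrocytes like Slc1a2, the gene it lies in. It was at 988, 1605, 1252, 1828 and 922 CPM in P301S astrocyte libraries 1 to 5 and at 1206, 1435 and 1652 CPM (lowest, median, highest) in non-Tg astrocytes. It was at 19.5, 28.8 and 47.2 CPM in P301S neurons and at 18.5, 24.5 and 47.5 CPM in non-Tg neurons. The neuron over astrocyte log2 difference was -5.35 (SE 0.29) in P301S and -5.62 (SE 0.25) in non-Tg, beside -5.00 (SE 0.23) and -5.59 (SE 0.21) for Slc1a2. In the GENCODE M21 annotation 189 of the 1825 exonic bases of Gm13872 lie inside exons of Slc1a2 on the opposite strand. Gm13872 held 11.05% ± 2.36 of the Slc1a2 count in P301S astrocytes, 10.7% ± 3.56 in non-Tg astrocytes, 8.37% ± 2.74 in P301S neurons and 10.3% ± 4.61 in non-Tg neurons (SD, n = 5, 6, 6 and 8). Without strand the reads of the pair cannot be told apart, so the level of Gm13872 is uncertain. Its genotype log2 difference was -0.15 (SE 0.21) in astrocytes and 0.12 (SE 0.26) in neurons.

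Gm34583, whose role is not known, was higher in P301S neurons than in non-Tg neurons in all but 1 library. It was at 10.2, 24.5 and 27.6 CPM (lowest, median, highest) in P301S neurons and at 3.73, 9.12 and 13.02 CPM in non-Tg neurons, from 6 to 76 counts a library. One P301S library lay within the non-Tg range and the other 5 above it. The log2 difference was 1.40 (SE 0.26). In P301S astrocytes 4 libraries held 1 count each and library 5 held 320 counts (120 CPM). Non-Tg astrocytes held 21 counts in all, with 3 of the 6 libraries at 0. The neuron to astrocyte count ratio was 0.941 in P301S (95% exact counting interval 0.802 to 1.10), and 61.0 (23.6 to 225) without astrocyte library 5. In non-Tg it was 6.41 (4.06 to 10.6). A processed pseudogene resembles its parent gene, and only uniquely aligned reads were counted, so the level of Gm34583 is uncertain.

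**Figure D4:**
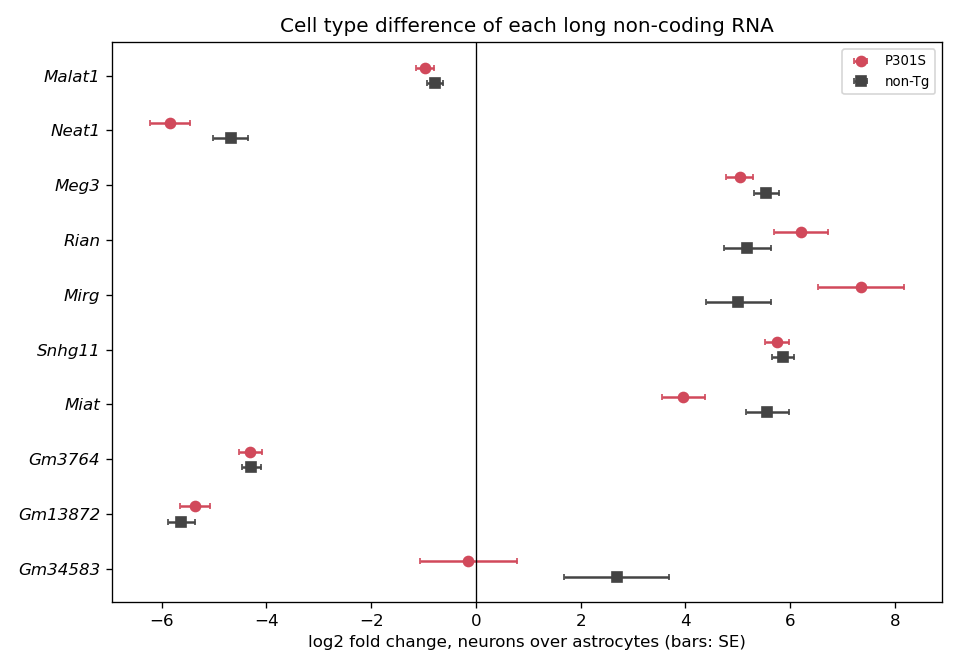
Log2 fold change of neurons over astrocytes for each RNA in P301S (circles) and non-Tg (squares) libraries, with bars of 1 SE. Meg3, Rian, Mirg, Snhg11 and Miat lie between 3.96 and 7.36, and Neat1, Gm3764 and Gm13872 between -5.84 and -4.28, in both genotypes; the Mirg values rest on 1 astrocyte count in P301S and 7 in non-Tg.

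Across the comparisons, the members were counted against all genes tested in the same fit. Calls are those of edgeR's quasi-likelihood test, where the p-value adjusted by Benjamini and Hochberg's method is below 0.05. In P301S astrocytes against non-Tg astrocytes 1 of the 8 members tested was called and did not overlap, Neat1, where 0.544% of 12130 genes were called and 2.14% did not overlap. In P301S neurons against non-Tg neurons 0 of 10 members were called by edgeR, 2 at an unadjusted p under 0.05 and 1 by DESeq2 (Gm34583), and 0 did not overlap; 0.00913% of 10951 genes were called and 0.21% did not overlap. In neurons against astrocytes of P301S 9 of 10 members were called, where 52.3% of 14197 genes were, and 8 of 10 did not overlap, where 29.7% did not. In neurons against astrocytes of non-Tg all 10 were called (9 by DESeq2, without Gm34583), where 46.9% were, and all 10 did not overlap, where 31.2% did not. The rule that chose the members used these contrasts, so nothing is read from the counts.

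For the genotype effect in astrocytes minus that in neurons, 0 of 10 members were called by edgeR, 4 at an unadjusted p under 0.05 and 1 by DESeq2 (Miat), where edgeR called 0.394% of 14197 genes. The difference of the effects was 1.16 (SE 0.48, log2) for Neat1 and 1.60 (SE 0.51) for Miat. Leaving out 1 library gave 1.01 to 1.58 for Neat1, whose neuron counts were near the limit, and 1.22 to 1.89 for Miat. The Miat value was not refitted without P301S astrocyte libraries 3 and 4 together, on which its level there rested. The difference of the effects was 2.83 (SE 1.35) for Gm34583 and -2.98 without P301S astrocyte library 5. For Mirg it was -2.34 (SE 1.07), with astrocyte counts at the floor.

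Other genes were followed as 6 lists. These were paraspeckle proteins, nuclear speckle proteins, Miat-binding and CELF splicing factors, genes of the Dlk1-Dio3 domain and its flanks, other snoRNA hosts and other named long non-coding RNAs. The last 3 lists hold neighbours and genes of the same kind, not known partners of the members. Of the 6 lists 0 genes were called between genotypes in the main edgeR fits. In astrocytes an alternative called up to 3 paraspeckle protein genes lower and up to 1 higher. Of Miat-binding and CELF factors up to 2 were lower and up to 1 higher. Up to 3 other named long non-coding RNAs and up to 1 nuclear speckle protein gene were higher, with 0 lower. Domain genes and snoRNA hosts had up to 1 in each direction. Among the list genes named here, some were called in astrocytes under alternatives. With all 25 libraries in 1 fit these were Qk, Cpsf6, Yy1, Snhg20 and Mir124a-1hg. Qk was also called with no filter, and Snhg20 without P301S astrocyte library 4 or without libraries 3 and 4. In astrocytes edgeR called 0 of 76 tested, with 15 at an unadjusted p under 0.05, beside 1629 of 12130 over all genes, and 1 called by DESeq2, Snhg20. In neurons edgeR called 0 of 83, with 8 at an unadjusted p under 0.05, beside 846 of 10951 over all genes, and 0 called by DESeq2. The median log2 difference of P301S over non-Tg was -0.14 in astrocytes and -0.09 in neurons for 17 paraspeckle proteins, beside 0.13 and -0.02 over all genes tested. For nuclear speckle proteins it was 0.08 and -0.11, from 19 and 20 genes, and for 7 Miat-binding and CELF splicing factors 0.12 and -0.17.

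Between cell types, genes of paraspeckle proteins went in both directions, while Neat1 was lower in neurons. Of 17 tested, 5 were higher and 2 lower in neurons in P301S and 4 were higher and 1 lower in non-Tg, with medians of 0.36 and 0.18 beside -0.21 and -0.11 over all genes. Of all genes 23.2% were called higher and 29% lower in P301S, and 21.8% and 25.1% in non-Tg. Sfpq, which encodes a core paraspeckle protein, was higher in neurons by 1.10 (SE 0.20, adjusted p = 2.37e-05) in P301S and 1.11 (SE 0.18, adjusted p = 4.19e-06) in non-Tg. Cpsf6, a cleavage factor subunit, was higher by 1.66 (SE 0.29, adjusted p = 1.38e-05) and 0.99 (SE 0.25, adjusted p = 0.00147). Hnrnph3, an RNA-binding protein gene, was lower by -1.13 (SE 0.20, adjusted p = 2.22e-05) and -0.61 (SE 0.18, adjusted p = 0.00575), the second not called with RLE factors (-0.41) or with no filter (-0.55). Zc3h6, a zinc finger protein gene, was higher by 1.06 (SE 0.31, adjusted p = 0.00544) in non-Tg and by 0.86 (SE 0.35, adjusted p = 0.0376) in P301S, where the call ended without astrocyte library 1, 2 or 3 or neuron library 1 or 5 (0.63 to 0.81).

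In P301S, neurons had 4 of 20 nuclear speckle protein genes higher and 7 lower, where 23.2% of all genes were higher and 29% lower. In non-Tg 4 were higher and 3 lower, where 21.8% of all genes were higher and 25.1% lower. The medians were -0.14 and -0.04. Son, which encodes a scaffold of the speckle, was lower in neurons like Malat1, by -1.75 (SE 0.13, adjusted p = 1.83e-12) in P301S and -1.51 (SE 0.12, adjusted p = 1.81e-12) in non-Tg. Sf3b1, a spliceosome subunit gene, was higher by 0.87 (SE 0.16, adjusted p = 2.50e-05) and 0.70 (SE 0.14, adjusted p = 1.03e-04). Srsf11, a gene of the serine and arginine-rich splicing factors, was higher by 1.02 (SE 0.18, adjusted p = 2.09e-05) in non-Tg and by 0.58 (SE 0.20, adjusted p = 0.0159) in P301S, the second not called without P301S astrocyte library 1 (0.49) or 5 (0.48). Pnn, which encodes the splicing-associated protein pinin, was lower by -1.002 (SE 0.21, adjusted p = 1.78e-04) in P301S and was at -0.44 (SE 0.19, adjusted p = 0.0546) in non-Tg. The second was called with non-Tg libraries alone, and without non-Tg astrocyte library 3 or non-Tg neuron library 4 or 7 (-0.53 to -0.45).

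Among splicing factors, all 6 CELF genes were higher in neurons, and the 2 factors that bind ACTAAC, Qk and Sf1, were lower in P301S neurons than in P301S astrocytes. Of the 8, 6 were thus higher and 2 lower in P301S, and 6 higher and 1 lower in non-Tg, beside the shares of all genes just given, with medians of 2.28 and 2.92. Celf2, which encodes an alternative splicing regulator of the CELF family, was higher by 2.89 (SE 0.20, adjusted p = 1.45e-13) in P301S and 2.82 (SE 0.18, adjusted p = 1.07e-14) in non-Tg. Celf5 was higher by 4.20 (SE 0.41, adjusted p = 2.87e-10) and 4.66 (SE 0.38, adjusted p = 3.46e-12). Qk, the gene of the glial splicing factor QKI that binds ACTAAC, was lower by -2.24 (SE 0.22, adjusted p = 3.14e-10) and -2.99 (SE 0.20, adjusted p = 2.63e-14). Sf1 was lower by -1.67 (SE 0.31, adjusted p = 3.12e-05) in P301S and was at -0.47 (SE 0.27, adjusted p = 0.164) in non-Tg.

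The genes around Meg3 and the other RNA hosts were mixed. Of 9 tested genes of the Dlk1-Dio3 domain and its flanks, 2 were higher and 0 lower in neurons in P301S by edgeR, where 4 of the 9 had an unadjusted p under 0.05 and DESeq2 called 4; in non-Tg 2 were higher and 1 lower. Rtl1 was called in both. Begain was higher by 2.63 (SE 0.73, adjusted p = 0.00309) in non-Tg and was at 1.73 (SE 0.76, adjusted p = 0.0560) in P301S. The second was called with RLE factors, by DESeq2, and without P301S astrocyte library 1 or P301S neuron library 1 (1.86 to 2.18). Wdr25 was lower by -2.18 (SE 0.70, adjusted p = 0.0103) in non-Tg, but at -0.59 and not called without non-Tg astrocyte library 5, and at 0.57 (SE 0.80, adjusted p = 0.566) in P301S. Yy1, a transcription factor gene, was higher by 1.40 (SE 0.54, adjusted p = 0.0296) in P301S, where the call ended without astrocyte library 1, 2 or 3 or neuron library 1 (1.12 to 1.31), and was at 0.29 (SE 0.44, adjusted p = 0.630) in non-Tg. Of 11 other snoRNA hosts tested, 2 were higher and 1 lower in P301S by edgeR; in non-Tg 1 was called, Snhg14, also the single one at an unadjusted p under 0.05 and the single one called by DESeq2. Snhg14, an imprinted snoRNA host of neurons, was higher by 4.27 (SE 0.51, adjusted p = 2.34e-08) in P301S and 3.59 (SE 0.45, adjusted p = 3.63e-08) in non-Tg. In P301S, Snhg1 was higher by 2.28 (SE 0.61, adjusted p = 0.00205), and was at 0.05 (SE 0.48, adjusted p = 0.9499) in non-Tg. Snhg20 was lower by -2.90 (SE 0.79, adjusted p = 0.00255) in P301S, but at -1.48 and not called without P301S astrocyte library 2, and at -0.30 (SE 0.72, adjusted p = 0.768) in non-Tg.

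Of 25 other named long non-coding RNAs tested, 7 were higher and 6 lower in neurons in P301S, and 7 higher and 7 lower in non-Tg, near the shares over all genes (23.2% higher and 29% lower in P301S, 21.8% and 25.1% in non-Tg). Rmst, an RNA of neural progenitors, was lower by -3.999 (SE 0.45, adjusted p = 7.20e-09) in P301S and -4.76 (SE 0.42, adjusted p = 2.00e-11) in non-Tg. Sox2ot, which overlaps the stem cell gene Sox2, was lower by -2.36 (SE 0.30, adjusted p = 5.20e-08) and -3.21 (SE 0.27, adjusted p = 8.11e-12). Mir124a-1hg, host of the neuronal miRNA miR-124, was higher by 4.25 (SE 0.53, adjusted p = 4.24e-08) and 5.71 (SE 0.52, adjusted p = 6.16e-11).

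Whether neighbouring members vary together among libraries was asked with the group means removed, so that the levels used to choose them did not enter. The 8 relations were tested over 11 astrocyte or 14 neuron libraries, by permutation within groups, 2-sided, with adjustment over the 8. Meg3 and Rian had a Pearson r of 0.80 in astrocytes (permutation p = 0.00851, adjusted p = 0.0681; Spearman rho 0.79, adjusted p = 0.0796), which did not pass 0.05. Without the 2 libraries farthest from the median of Meg3, non-Tg astrocyte libraries 5 and 6, r was 0.50, so the value rests on them. In neurons Meg3 and Rian had an r of -0.04 (permutation p = 0.904, adjusted p = 0.904; rho -0.00220). Meg3 with Mirg had an r of -0.25 (rho -0.32) and Rian with Mirg 0.11 (rho 0.0901) in neurons, with adjusted permutation p of 0.657 and 0.799. Neither relation was tested in astrocytes, where Mirg was at the floor.

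Malat1 and Neat1 had an r of 0.37 in astrocytes (rho 0.37; permutation p = 0.311, adjusted p = 0.622) and -0.28 without P301S astrocyte libraries 4 and 2. In neurons r was 0.14 (rho 0.17; permutation p = 0.667, adjusted p = 0.799). Malat1 and the mitochondrial share of counts had an r of 0.41 in astrocytes (rho 0.39; adjusted permutation p = 0.622) and 0.30 in neurons (rho 0.24; adjusted permutation p = 0.622). None of the 8 relations passed the threshold after adjustment.

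**Figure D5:**
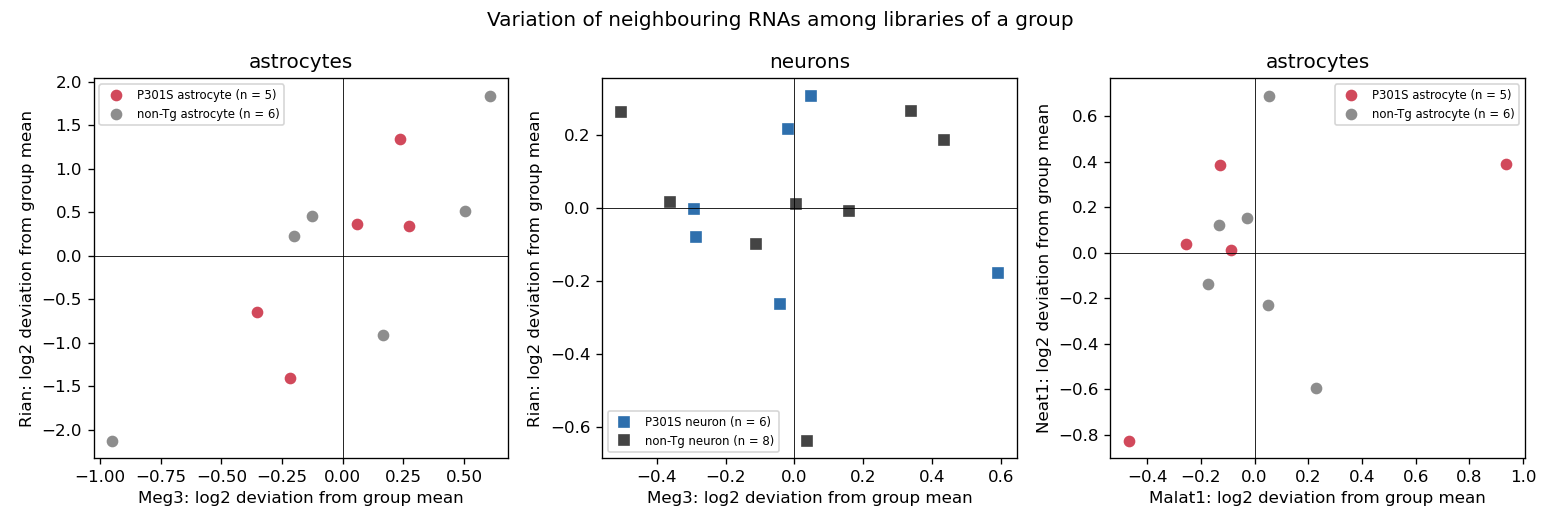
Deviation of each library from its group mean on the log2 CPM scale, for Meg3 and Rian in astrocytes (left) and neurons (middle) and for Malat1 and Neat1 in astrocytes (right). Red and blue points are P301S libraries and grey and black points non-Tg libraries; r is 0.80, -0.04 and 0.37 from left to right.

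The 2 genes most like each member were taken by the Pearson r of deviations from the group mean over 25 libraries, among 11418 genes with a symbol of their own. These values describe the libraries, share their depth and scaling, and are the highest of many. For Malat1 they were Prpf4b, a splicing-related kinase gene, at 0.90 and Ankrd26 at 0.82, which dropped to 0.71 and 0.41 without P301S astrocyte library 4. For Neat1 they were Axl, a receptor tyrosine kinase gene, at 0.79 and Cd84, an immune cell receptor gene, at 0.76, and 0.73 and 0.68 without P301S neuron library 1. For Meg3 they were Eef1akmt1 at 0.73 and Chil5 at 0.71, and 0.55 and 0.62 without non-Tg astrocyte library 5. For Rian they were Npnt at 0.84 and Sri at 0.83, and 0.76 and 0.74 without that library. For Mirg they were Cdk18 at 0.80 and Hipk4 at 0.75, and 0.71 and 0.61 without non-Tg neuron library 8.

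For Snhg11 the most similar genes were Ackr3 at 0.76 and Ccdc115 at 0.72, and 0.72 and 0.61 without non-Tg astrocyte library 5. For Miat they were Eno2, the neuronal enolase gene, at 0.85 and Arhgef28 at 0.81, and 0.81 and 0.76 without P301S astrocyte library 4. For Gm3764 they were Gtf3c1 at 0.82 and Slc9a8 at 0.77, and 0.78 and 0.74 without non-Tg astrocyte library 5. For Gm13872 they were Fxyd1, an ion pump regulator gene, at 0.70 and Ppara, a lipid-sensing nuclear receptor gene, at 0.69, and 0.72 for both without non-Tg neuron library 5. For Gm34583, Cys1 and Car7 stood at 0.86 each, and at 0.50 and 0.34 without P301S astrocyte library 5, so these 2 rest on that library.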

How the data were processed

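Counts in 25 deposited libraries are reads uniquely aligned to a gene model, per the file headers, and the RPKM beside them were size-factor adjusted by the authors, per the file headers. RPKM served only for ranks and levels between genes. GSNAP and GRCm38 are named in the submitters' processing notes; no source used here states their versions, the gene models or the strand setting. Of 36528 Entrez IDs, 31049 were matched to a symbol and 5479 were not; the unmatched held 3.30% of counts and stayed in every fit. No 2 libraries were identical (lowest chi-square per degree of freedom within a group 1.84).

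Genotype was fitted within each cell type, and cell type and the difference of the genotype effects in 1 fit of all 25 libraries, with edgeR 4.0.16 (R 4.3.3): TMM, filterByExpr, robust quasi-likelihood F test, Benjamini-Hochberg adjustment over all genes tested. Folds are log2 with P301S over non-Tg and neurons over astrocytes, with SE as size over the root of F. Group levels use TMM CPM; log2 CPM used a prior count of 2. Co-variation used 100000 permutations, and relations were run only where at least 3 counts were present in most libraries. The fits were tested on simulated data, with the same spread for all genes and changes set only in well-counted genes with a small share of counts. Genes at the floor were not changed in it. Nor were genes with shares as large as that of Malat1, or of Meg3 and Snhg11 in neurons. The simulation thus does not cover such values. Intervals and floors cover counting error only. The members, the companion lists and the marker lists were chosen with earlier results of these data known. Named genes are all members, up to 3 called genes with the smallest p per companion list and contrast, and the 2 genes most like each member; Sf1 and Slc1a2 were named beside them. DESeq2 1.42.0, RLE factors, no filter, Malat1 left out, other sets of libraries and each library left out were tried as alternatives. Leaving out P301S astrocyte libraries 3 and 4 was chosen after seeing the data.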

Additional observations from a re-analysis of the deposited data

Results flagged for a closer look

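Each member was checked in each group for a library standing apart by the gap to its nearest neighbour over the group's range, in 40 sets of libraries. The cut-offs flag about 1 in 20 sets of normally distributed values. CPM need not be so distributed, so the number of flags is not set against a chance number. A member stood apart 8 times, over 6 members and 6 libraries. Malat1 was at 742091 CPM in P301S astrocyte library 4, where the other 4 had 280968 to 366011 CPM. It was at 283711 CPM in P301S neuron library 3, where the other 5 had 184097 to 218004 CPM. The same library had Meg3 at 46111 CPM, where the others had 25007 to 31627 CPM. Rian was at 34.5 CPM in non-Tg astrocyte library 6, where the others had 1.46 to 13.3 CPM.

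Mirg was at 0.315 CPM in P301S astrocyte library 2, which is 1 count, where the other 4 were at 0. With the others at 0, any count would have been flagged. Mirg was at 36.7 CPM in non-Tg neuron library 8, where the others had 7.21 to 16.5 CPM. Miat was at 643 CPM in the same library, where the others had 183 to 326 CPM. Gm34583 was at 120 CPM in P301S astrocyte library 5, where the others had 0.282 to 0.755 CPM.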

How the results depend on the processing

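The number of genes called between genotypes depended on the tool. In astrocytes it was 66, and 440 with DESeq2, 561 with no filter, 1682 with all 25 libraries in 1 fit and 42 without P301S astrocyte libraries 3 and 4. In neurons it was 1, and 49 with DESeq2, 17 with no filter and 38 without non-Tg neuron libraries 5 and 8, whose sample IDs start differently. For the difference of the effects it was 56, and 425 with DESeq2. For neurons against astrocytes it was 7420 in P301S and 4925 with P301S libraries alone. Leaving out 1 library gave 27 to 136 calls in astrocytes, 0 to 23 in neurons, 9 to 522 for the difference of effects, 6840 to 7781 for neurons against astrocytes in P301S and 6168 to 6485 in non-Tg. The causes were not tested. RLE factors moved the median over all genes in non-Tg neurons against astrocytes to 0.08, where TMM gave -0.11; all 10 members kept their direction there.

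Of 978 alternative values of the members' log2 differences, 971 moved by less than the spread between replicates and 7 by more. Leaving out 1 library usually moves a group mean by only a part of that spread, so these numbers do not measure stability. The shift of Malat1 in astrocytes from 0.20 to -0.12 without P301S astrocyte library 4 is among the 971. No value of a called difference changed sign. Between genotypes in astrocytes Miat was called with all 25 libraries in 1 fit, and Gm34583 in that fit and with no filter. Between genotypes in neurons Gm34583 was called in 6 of 20 alternatives: DESeq2, no filter, without non-Tg neuron libraries 5 and 8, and without P301S neuron library 1, non-Tg neuron library 5 or non-Tg neuron library 8. Between cell types in non-Tg, Gm34583 was not called by DESeq2, with no filter, or without non-Tg astrocyte library 4, 5 or 6. The contrasts chose these members, so nothing is read from their calls. Genotype differences near 0 changed sign in some settings for Gm3764 and Malat1 in both cell types and for Miat and Gm13872 in neurons. Meg3 with Rian in astrocytes passed at r = 0.83 (adjusted permutation p = 0.0457) on totals without Malat1 and without TMM, and over the alternatives run its adjusted p went from 0.0263, for Spearman's rho on that scale, to 0.628. Of 2157 values of other named genes 18 lost and 17 gained a call. No paired analysis was possible because the labels give no replicate number that groups share. Depth limits Mirg and Gm34583 in astrocytes, at or below 3 counts in most libraries, and Neat1 in neurons.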
